A study of Mus musculus with 8 samples.

Results

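The collagen gene family was followed across 8 arrays of RNA from mouse eyes. Members were all genes whose platform symbol was Col, a number, a and a number, taken only from probe sets that carried a single symbol. This gave 36 genes with 58 probe sets, of 12393 genes with a single symbol on the array. Each of the 36 genes was represented by its probe set with the highest mean signal over the 8 arrays, and 29 of them passed a filter on low signals that kept 15838 probe sets. The arrays fall into 4 groups of 2, numbered I and II: wild-type eyes at 5 days, KPAW eyes at 5 days, wild-type eyes at 1 month and KPAW eyes at 1 month of age. KPAW is not expanded in the labels, so its allele, and what limits it as a model, are not given here. C57Bl6 is named as the strain of the 5-day wild type, and no strain is named for the other 3 groups. All RNA was total RNA taken with Trizol and cleaned on RNeasy columns, and no other agent or treatment is named. Nothing in the labels says that the arrays of a group came from separate animals, so each p-value measures only the spread between these arrays, which may be technical. In RNA from whole tissue, fewer cells of a type and less RNA per cell cannot be told apart.

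Collagens are triple-helical proteins of the extracellular matrix, built from chains that are wound together in the cell, secreted, trimmed and cross-linked. Fibrillar collagens (types I, II, III, V and XI) form the fibres of sclera, cornea and, for type II, vitreous and cartilage. Type IV collagen forms the sheet of every basement membrane, such as the lens capsule, the inner limiting membrane, Bruch's membrane and the walls of vessels. FACITs are collagens that sit on the surface of fibrils, and type VIII forms the hexagonal network of Descemet's membrane under the cornea. The sclera and cornea lay down much of their matrix in the first weeks after birth.

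Several members lie beside each other in the mouse genome, and 3 stretches of DNA before a start site are shown because the genes behind them moved both ways with age in wild type: Col1a2 and Col3a1 fell and Col17a1 rose. Each is the 250 bases before the start site in RefSeq on GRCm38.p6, printed 5′ to 3′ on the gene's own strand, with capitals marking matches to CCAAT (or ATTGG on the other strand), TATAAA (or TTTATA) and GGGCGG (or CCGCCC).
Col1a2, chr6:4505368-4505617, plus strand: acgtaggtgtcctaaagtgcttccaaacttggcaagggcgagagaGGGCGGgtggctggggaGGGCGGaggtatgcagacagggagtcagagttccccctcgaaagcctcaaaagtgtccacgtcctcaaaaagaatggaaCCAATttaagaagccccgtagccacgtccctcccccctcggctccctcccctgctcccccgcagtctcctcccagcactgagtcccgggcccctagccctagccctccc
Col3a1, chr1:45311288-45311537, plus strand: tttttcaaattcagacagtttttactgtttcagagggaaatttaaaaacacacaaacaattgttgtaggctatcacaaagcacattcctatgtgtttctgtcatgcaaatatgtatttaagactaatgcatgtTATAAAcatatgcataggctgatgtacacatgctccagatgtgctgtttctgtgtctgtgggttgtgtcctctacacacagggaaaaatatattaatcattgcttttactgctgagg
Col17a1, chr19:47692043-47692292, minus strand: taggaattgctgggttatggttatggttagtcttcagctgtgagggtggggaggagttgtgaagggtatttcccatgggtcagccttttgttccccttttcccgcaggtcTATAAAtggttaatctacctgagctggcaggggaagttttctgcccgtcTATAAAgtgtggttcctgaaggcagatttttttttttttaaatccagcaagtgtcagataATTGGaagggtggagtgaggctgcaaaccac

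The Col1a2 stretch holds GGGCGG at 205 and 188 bases and CCAAT at 109 bases before the start. The Col3a1 stretch holds TATAAA at 117 bases before the start, and the Col17a1 stretch holds it at 140 and 91 bases, with ATTGG at 31. The same 250 bases were searched in all RefSeq windows, with the first 50 bases of the transcript left out. CCAAT was found on either strand in 33.8% of 32851 windows, and in 12 of the 30 windows of the 27 members that had an entry. TATAAA was found in 12.4% of all windows and in 5 of the 30, and GGGCGG in 32.7% and in 16 of the 30. A match is a string of letters and shows no binding. Among the neighbours, Col4a1 and Col4a2 on chromosome 8 start 21 bases apart on opposite strands, and Col4a6 and Col4a5 on chromosome X start 1343 bases apart on opposite strands. Col4a4 and Col4a3 on chromosome 1 overlap at their ends by 114 bases. Col3a1 and Col5a2, both fibrillar and both on chromosome 1, are separated by 24624 bases.

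Signals below are scaled array signals, comparable between arrays for one gene but not between genes. The 2 arrays of a group correlated at 0.927 to 0.969 over all probe sets tested. Lens markers (5 of 5 on the array) summed to 26.1 to 39.2 over the 8 arrays. Rod markers (4 genes on the array) summed to 4.77 to 5.42 at 5 days and 18.0 to 22.2 at 1 month, except on KPAW I at 1 month, where they summed to 0.445. The arrays also differed in sex-linked transcripts: Xist read 2.95 to 3.64 on both wild-type arrays and KPAW II at 5 days, and 0.0523 to 0.0861 on the other 5, where the Y-linked Eif2s3y read 0.0923 to 0.149. Age and the sex read from these genes cannot be told apart in wild type.

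The first comparison asks how the family changed from 5 days to 1 month in wild-type eyes. Collagen signals fell across most classes: 21 of the 29 tested members were lower at 1 month and 1, Col17a1, was higher (limma, Benjamini-Hochberg adjusted p under 0.05 over all probe sets tested), where 9.33% of all probe sets were called lower and 8.73% higher. The median log2 fold change of the 29 was -1.15, against -0.00 over all probe sets. Fibrillar collagens fell in 8 of 9 genes with a median of -1.72, the beaded-filament type VI chains in 3 of 3 (-1.55), FACITs in 4 of 5 tested (-1.12), type VIII in its 1 tested gene, the multiplexins XV and XVIII in 2 of 2 (-1.40), and type IV chains in 3 of 6 (-0.75). Both 1-month arrays lay below both 5-day arrays for 24 of 29 members (33.0% of all probe sets) and above them for 1 (32.5%).

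**Figure D1:**
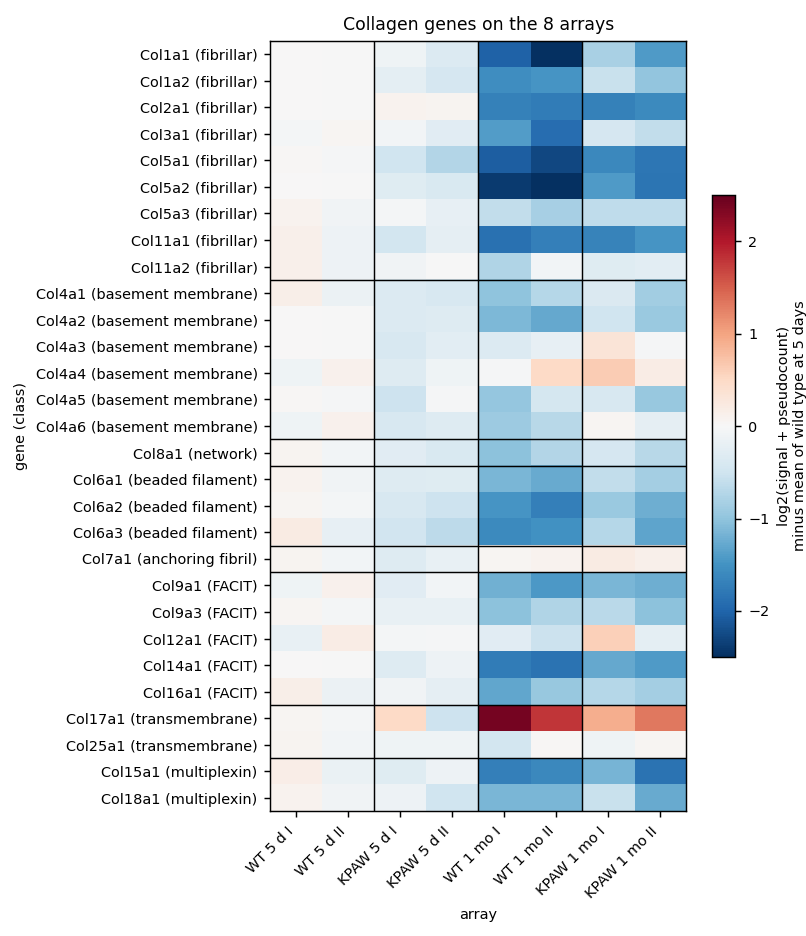
Each row is 1 of the 29 tested collagen genes and each column 1 of the 8 arrays, coloured by log2(signal + pseudocount) minus the gene's mean over the 2 wild-type arrays at 5 days, with black lines between groups and classes and the end colours for anything beyond the scale. Blue, for lower values, fills the wild-type columns at 1 month for most fibrillar, type VI and FACIT genes, is paler in both KPAW columns of that age for Col1a1, Col3a1 and Col5a2, and gives way to red for Col17a1.

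Col1a1 and Col1a2 encode the chains of type I collagen, the main fibre of sclera and cornea. Col1a1 (probe set 1423669_at) read 3.37 and 3.32 on the wild-type arrays at 5 days and 0.814 and 0.551 at 1 month. The groups did not overlap, and the gene fell 4.88-fold on the log2(signal + 0.0211) scale (log2 -2.29, SE 0.24, adjusted p 0.00123). Col1a2 (probe set 1450857_a_at) read 5.45 and 5.35 at 5 days and 1.83 and 1.92 at 1 month. Its fall was smaller (log2 -1.51, SE 0.16, adjusted p 0.00127), again with no overlap. The difference between the chains' falls was not tested.

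Col3a1 (probe set 1427883_a_at), whose product co-assembles with type I in extensible tissue, read 3.48 and 3.72 at 5 days and 1.35 and 0.948 at 1 month (log2 -1.65, SE 0.18, adjusted p 0.00147). Col5a2 (probe set 1422437_at), which encodes a chain of the type V collagen that sets fibril diameter in the cornea, read 1.14 and 1.12 at 5 days and 0.199 and 0.179 at 1 month. At 5.50-fold lower (log2 -2.46, SE 0.16, adjusted p 0.000225), it had the largest fall of the 29 members. Its partner chain Col5a1 fell from 0.846 and 0.803 to 0.181 and 0.155 (log2 -2.17, SE 0.15, adjusted p 0.000287). Both genes were several-fold above their 1-month level on both 5-day arrays. Col5a3 fell less (log2 -0.73, SE 0.17, adjusted p 0.0219), and without any 1 of the 4 wild-type arrays its adjusted p lay between 0.0597 and 0.14.

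Col2a1 (probe set 1450567_a_at), the collagen of cartilage and vitreous, read 0.398 and 0.387 at 5 days and 0.107 and 0.103 at 1 month (log2 -1.72, SE 0.13, adjusted p 0.000334). Col11a1, which encodes a chain that nucleates type II fibrils, fell alongside it, from 0.346 and 0.288 to 0.0716 and 0.0814 (log2 -1.79, SE 0.17, adjusted p 0.000723). Col11a2 did not pass the test (log2 -0.41, SE 0.24, adjusted p 0.268), and its 1-month arrays, at 0.0392 and 0.0758, overlapped the 5-day ones, at 0.0897 and 0.0724. Of 9 cartilage and bone markers 8 were on the array and 4 passed the filter, none of them was called, and the summed signal ran from 0.231 to 0.411 over the 8 arrays. Their part in these falls was not tested.

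Of 7 fibroblast and tendon markers 5 were on the array, with a summed signal of 2.37 to 2.62 on the wild-type arrays at 5 days and 1.17 to 1.25 at 1 month. Postn, Tnmd and Pdgfra were called lower, while Thy1 (log2 0.27, adjusted p 0.216) and Dpt (log2 0.06, adjusted p 0.848) were not called. The corneal stroma markers Kera and Lum were called lower too, Dcn was not (log2 0.04, adjusted p 0.871), and the 3 together summed to 4.12 to 4.37 at 5 days and 3.33 to 3.57 at 1 month. Hair follicle markers stood at 3.84 on wild-type I at 5 days and at 0.122 to 0.158 on the other 3 wild-type arrays, and epidermal markers at 4.68 on that array and 0.343 to 0.404 on the other 3. Without wild-type I at 5 days, which leaves 1 array in that group, the calls of Col1a1, Col1a2, Col2a1, Col3a1, Col5a1, Col5a2 and Col11a1 held. Those of Col5a3, Col4a1, Col4a6, Col8a1, Col9a3, Col16a1 and Col18a1 were lost. The part of the tissues named here in the collagen falls was not tested, and that fit does not test it.

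Type IV chains behaved less uniformly. Col4a1 and Col4a2, the pair that forms the common basement membrane network, fell: Col4a2 (probe set 1424051_at) read 1.37 and 1.34 at 5 days and 0.611 and 0.548 at 1 month (log2 -1.20, SE 0.16, adjusted p 0.00306). On the values as deposited, the Col4a2 call was lost (limma, log2 -0.70, adjusted p 0.0726). Col4a1 read 2.37 and 1.94, then 1.05 and 1.29 (log2 -0.87, SE 0.20, adjusted p 0.0219). Its call was lost without any 1 of the 4 wild-type arrays (adjusted p 0.0555 to 0.146), and its second probe set did not pass (log2 -0.44, adjusted p 0.0887). Col4a6, which encodes a chain of the network found in the basement membranes of lens and surface epithelium, read 0.350 and 0.407 at 5 days and 0.191 and 0.227 at 1 month (log2 -0.80, SE 0.16, adjusted p 0.0143). That call was lost without wild-type I at 1 month (0.0854), wild-type I at 5 days (0.0561) or wild-type II at 5 days (0.101), and its second probe set fell short of the threshold, with an adjusted p of 0.0586.

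Col4a3, Col4a4 and Col4a5 encode the chains of the adult network of kidney and eye that are altered in Alport syndrome. Col4a3 read 0.199 and 0.197 at 5 days and 0.153 and 0.169 at 1 month and did not pass (log2 -0.27, SE 0.16, adjusted p 0.275; 0.18 without scaling). Col4a4, next to it in the genome, read 0.0538 and 0.0659, then 0.0576 and 0.0927, with overlapping groups (log2 0.23, SE 0.25, adjusted p 0.555). Col4a5 read 0.567 and 0.547, then 0.276 and 0.403, and did not pass (log2 -0.70, SE 0.25, adjusted p 0.095), while its second probe set did (log2 -0.66, adjusted p 0.0169). Col4a5 and Col4a6 are X-linked, and the wild-type arrays at 5 days had high Xist while those at 1 month had not.

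The tested type VIII gene and the type VI chains fell as well, and Col7a1 was not called. Col8a1 of Descemet's membrane read 0.741 and 0.676 at 5 days and 0.336 and 0.415 at 1 month (log2 -0.89, SE 0.16, adjusted p 0.00902). Its adjusted p was 0.0598 without wild-type I at 1 month and 0.0731 without wild-type I at 5 days, and that of its second probe set was 0.0522. The type VI chains, which make beaded microfibrils around cells, fell by 1.20 (Col6a1), 1.59 (Col6a2) and 1.55 (Col6a3) on the log2 scale, with adjusted p from 0.000856 to 0.00364. Col6a2, for example, read 1.11 and 1.03 at 5 days and 0.374 and 0.314 at 1 month. On the values as deposited, the Col6a1 call was lost (limma, log2 -0.71, adjusted p 0.0902). Col7a1, the anchoring fibril of surface epithelium, read 0.102 to 0.115 on all 4 wild-type arrays (log2 0.07, SE 0.15, adjusted p 0.758).

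Among the FACITs, Col9a1, a partner of type II collagen in vitreous, read 1.06 and 1.22 at 5 days and 0.484 and 0.407 at 1 month (log2 -1.32, SE 0.15, adjusted p 0.00161). Col14a1 fell the most of the class, from 0.447 and 0.436 to 0.117 and 0.108 (log2 -1.79, SE 0.14, adjusted p 0.000372). Col16a1 (log2 -1.12, adjusted p 0.00649) and Col9a3 (log2 -0.89, adjusted p 0.0105) also fell. The Col16a1 call was lost without wild-type I at 5 days (0.0559), and the Col9a3 call without wild-type I at 1 month (0.0699), wild-type I at 5 days (0.0764) or wild-type II at 5 days (0.0577). Col12a1 did not pass (log2 -0.41, SE 0.27, adjusted p 0.327; 0.05 without scaling). Of the basement membrane zone multiplexins, Col18a1, the precursor of endostatin, read 0.725 and 0.640, then 0.296 and 0.295 (log2 -1.15, SE 0.24, adjusted p 0.015). Its call was lost without any 1 of the 4 wild-type arrays (0.0646 to 0.0964), and its second probe set had log2 -0.54 with an adjusted p of 0.144. Col15a1 read 0.185 and 0.143 at 5 days and 0.0352 and 0.0394 at 1 month (log2 -1.66, SE 0.25, adjusted p 0.00444). Its 1-month mean of 0.0373 lay under the filter level of 0.0406, so this gene passed the filter through its other 3 groups.

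Col17a1 (probe set 1418799_a_at) was the 1 member that rose. It encodes a transmembrane collagen of the hemidesmosomes, which tie the basal cells of stratified epithelia such as the cornea and skin to their basement membrane. It read 0.181 and 0.166 on the wild-type arrays at 5 days and 1.00 and 0.646 at 1 month (log2 2.09, SE 0.34, adjusted p 0.00621). Both older arrays lay above both younger ones. Without wild-type I at 1 month the value was 1.78 with an adjusted p of 0.0502. The 4 corneal epithelium markers had a summed signal of 2.30 to 2.31 at 5 days and 16.6 to 17.7 at 1 month; Krt12, Krt5 and Aldh3a1 were called higher, and Pax6 was not (log2 0.13, adjusted p 0.692). Epidermal markers, in contrast, summed to 0.343 and 0.355 on these 1-month arrays. The part of epithelial content in the Col17a1 rise was not tested. Col25a1, a neuronal transmembrane collagen, read 0.0659 to 0.104 on the 4 wild-type arrays (log2 -0.22, SE 0.19, adjusted p 0.465; 0.19 without scaling).

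**Figure D2:**
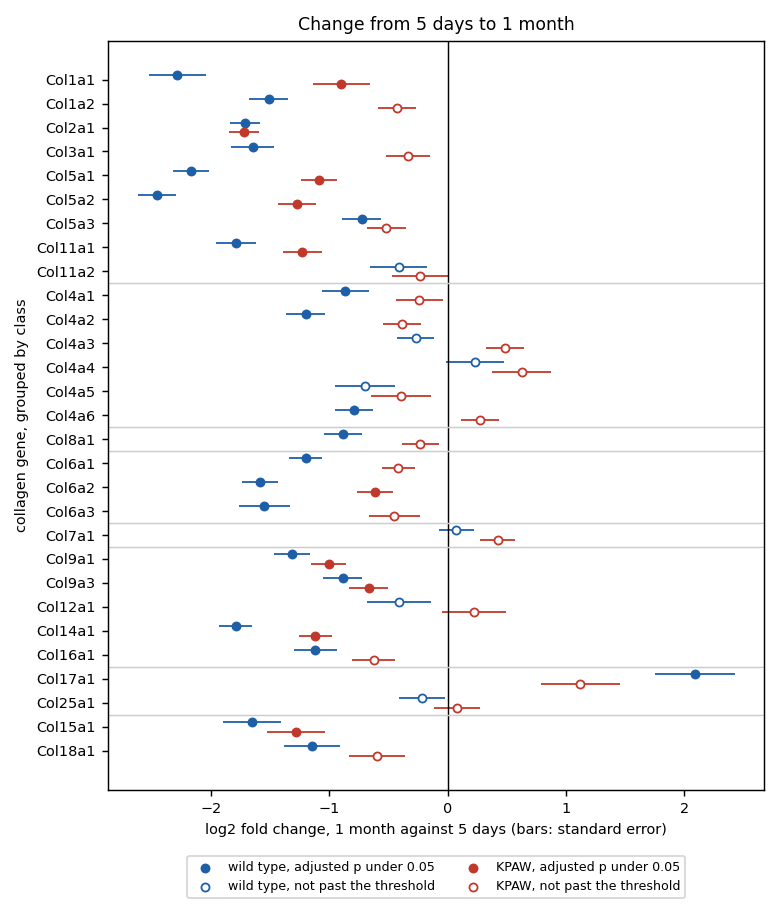
The log2 fold change from 5 days to 1 month is plotted with its standard error for each of the 29 tested collagens, grouped by class, in wild-type and KPAW eyes; filled points have an adjusted p under 0.05. In wild type 21 genes are called lower and Col17a1 higher, and in KPAW 10 are called lower.

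In KPAW eyes the same comparison called 10 of the 29 members lower and none higher, against 7.51% of all probe sets lower and 6.76% higher. The median log2 fold change was -0.43 (-0.04 over all probe sets). The 10 genes were Col1a1, Col2a1, Col5a1, Col5a2, Col11a1, Col6a2, Col9a1, Col9a3, Col14a1 and Col15a1, and all 10 were also called lower in wild type. Another 11 were called lower in wild type only. The shares of all probe sets with either pattern were not counted, and a call in wild type only is no test of a difference. For 20 of the 21 genes called lower in wild type, the estimated fall was larger in wild type than in KPAW. Picking genes by their wild-type fall favours this outcome, so the count is no support for a difference. The test of that difference over all 29 members is given below. Both 1-month arrays lay below both 5-day arrays for 20 of 29 members (32.2% of all probe sets) and above them for 6 (25.3%). No type IV chain and no type VIII gene passed in KPAW. Fibroblast and tendon markers summed to 2.22 to 2.29 on the KPAW arrays at 5 days and 1.37 to 1.60 at 1 month, with Postn, Tnmd and Pdgfra called lower and Thy1 and Dpt higher. Corneal stroma markers summed to 3.15 to 3.47, then 4.22 to 5.74, with Dcn called higher. Kera and Lum were not called (limma, log2 -0.72, adjusted p 0.0743 and log2 0.02, adjusted p 0.969). Kera went the other way, from 0.327 and 0.295 to 0.240 and 0.134. Epidermal markers summed to 3.29 on KPAW I and 0.309 on KPAW II at 5 days and to 20.2 and 7.92 at 1 month, with Sprr3 called higher. The part of these tissues in the KPAW age changes was not tested.

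Col2a1 was the gene called lower in wild type whose estimated fall was not larger there. On the KPAW arrays it read 0.421 and 0.414 at 5 days and 0.107 and 0.116 at 1 month. Its log2 change of -1.72 (SE 0.13, adjusted p 0.00049) equals that of wild type to 2 decimals. Col9a1 fell from 0.930 and 1.09 to 0.504 and 0.478 (log2 -1.01, SE 0.15, adjusted p 0.00567). Its second probe set had log2 -0.63 with an adjusted p of 0.0512. Col11a1 fell from 0.225 and 0.267 to 0.0852 and 0.0997 (log2 -1.23, SE 0.17, adjusted p 0.00368).

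Of the type I and III genes only Col1a1 passed in KPAW. It read 3.10 and 2.65 at 5 days and 1.89 and 1.24 at 1 month (log2 -0.90, SE 0.24, adjusted p 0.0439). The adjusted p was 0.118 and 0.149 without KPAW II or I at 5 days, 0.133 without KPAW II at 1 month, and 0.0763 and 0.077 without either wild-type array at 5 days. Col1a2 read 4.53 and 4.01, then 3.67 and 2.71 (log2 -0.43, SE 0.16, adjusted p 0.117), and Col3a1 3.41 and 2.94, then 2.68 and 2.34 (log2 -0.34, SE 0.18, adjusted p 0.262). All of these groups were separate, with every 1-month array below every 5-day array. The second probe sets of Col1a2 (log2 -1.11, adjusted p 0.00897) and Col3a1 (log2 -1.17, adjusted p 0.0093) did pass, so the probe set chosen decides the call for these genes in KPAW. The second probe set of Col1a1 did not (log2 -0.94, adjusted p 0.0831). Leaving out 1 array, the Col1a2 value ran from -0.65 to -0.21.

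Col5a2 fell from 0.908 and 0.863 to 0.412 and 0.304 in KPAW (log2 -1.27, SE 0.16, adjusted p 0.00313), and Col5a1 from 0.575 and 0.488 to 0.257 and 0.220 (log2 -1.09, SE 0.15, adjusted p 0.00434). Col14a1 (log2 -1.12, adjusted p 0.00301) and Col15a1 (log2 -1.28, adjusted p 0.014) fell too. Col15a1 had an adjusted p of 0.0871 without KPAW II at 5 days. For Col6a2 (log2 -0.61, adjusted p 0.0354) and Col9a3 (log2 -0.67, adjusted p 0.0334), leaving out KPAW I or II at 5 days, KPAW II at 1 month or either wild-type array at 5 days ended the call, with adjusted p from 0.0633 to 0.143. The second probe sets of Col6a2 (log2 -0.52, adjusted p 0.113) and Col14a1 (log2 -0.89, adjusted p 0.103) did not pass. Without KPAW II at 5 days, the one KPAW array of that age with high Xist, 6 members were called lower in all (1.90% of all probe sets).

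Among the type IV chains of KPAW eyes, Col4a1 read 1.70 and 1.62 at 5 days and 1.67 and 1.17 at 1 month, with overlapping groups (log2 -0.24, SE 0.20, adjusted p 0.451). Col4a2 read 1.06 and 1.08, then 0.950 and 0.699 (limma, log2 -0.39, SE 0.16, adjusted p 0.149). Leaving out 1 array, its value ran from -0.60 to -0.17. Col4a3 had higher readings at 1 month, 0.253 and 0.195 against 0.146 and 0.161 (limma, log2 0.48, SE 0.16, adjusted p 0.0837). Its value ran from 0.31 to 0.65 leaving out 1 array. Col4a6 read 0.281 and 0.299, then 0.393 and 0.321 (limma, log2 0.28, SE 0.16, adjusted p 0.285), while its second probe set had log2 -0.22. Col4a4 read 0.0432 and 0.0537, then 0.104 and 0.0703 (log2 0.63, SE 0.25, adjusted p 0.131), with separate groups. Col4a5 read 0.382 and 0.546, then 0.419 and 0.280 (log2 -0.39, SE 0.25, adjusted p 0.337). Outside type IV, Col8a1 (log2 -0.23, adjusted p 0.365) and Col18a1 (log2 -0.60, adjusted p 0.132) were not called. Col17a1 read 0.253 and 0.115 at 5 days and 0.345 and 0.460 at 1 month (limma, log2 1.12, SE 0.34, adjusted p 0.0621). Its value ran from 0.62 to 1.62 leaving out 1 array.

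**Figure D3:**
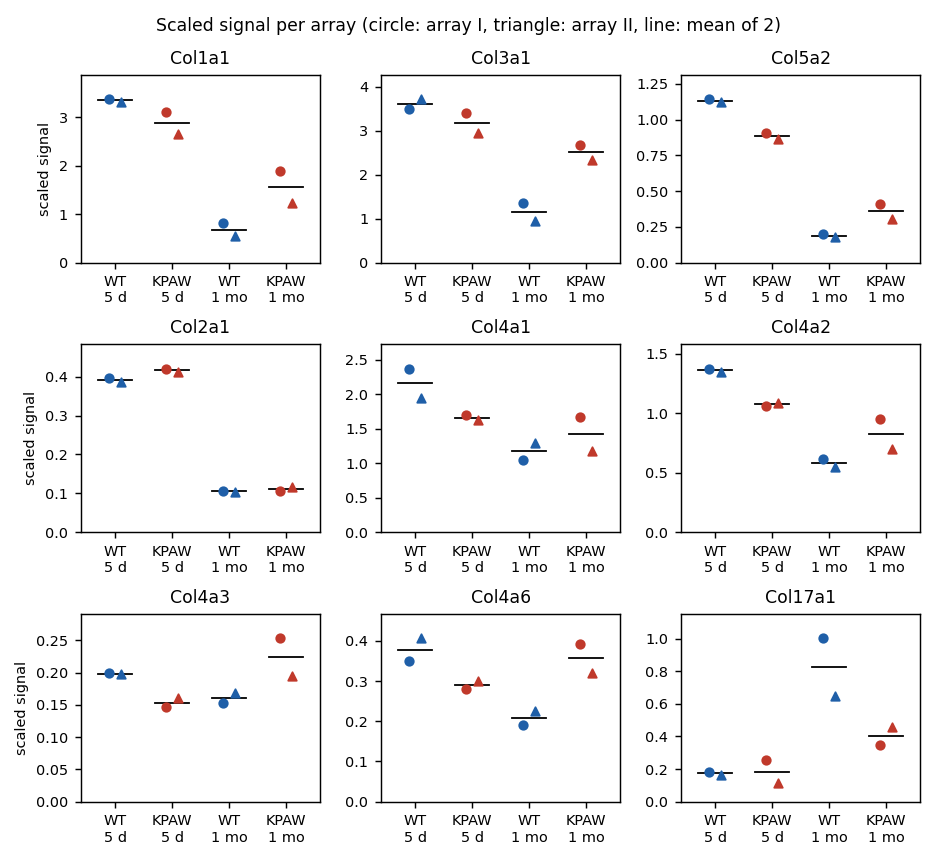
Scaled signal of 9 collagen genes on each array, with a circle for array I and a triangle for array II, wild type in blue and KPAW in red, a line at the mean of each group of 2, and a separate linear scale per gene. In the 1-month groups the KPAW points lie above the wild-type points for Col1a1, Col3a1, Col5a2, Col4a2, Col4a3 and Col4a6, below them for Col17a1, and overlap them for Col4a1.

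The next comparison is KPAW against wild type at 1 month. No collagen passed the test (limma), where 0.0253% of all probe sets, 4 of 15838, did (0.0126% higher and as many lower); 13 of the 29 had an unadjusted p under 0.05, as did 1100 of all. The estimates leaned one way: 28 of 29 were positive (48.0% of all probe sets) with a median of 0.33 against -0.01 over all, whereas on the values as deposited, where the median over all probe sets moved to -0.26, 15 were positive and the collagen median was 0.07. For 18 of 29 members the KPAW readings were both above the wild-type ones (17.0% of all probe sets), and for 1, Col17a1, both below (19.6%). Adjusted p-values of the 29 ran from 0.219 to 0.979.

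Col3a1 had the lowest adjusted p. It read 2.68 and 2.34 on the KPAW arrays and 1.35 and 0.948 on the wild-type ones (log2 1.13, SE 0.18, adjusted p 0.219). Col1a1 read 1.89 and 1.24 against 0.814 and 0.551 (log2 1.17, SE 0.24, adjusted p 0.396). Col5a2 read 0.412 and 0.304 against 0.199 and 0.179 (log2 0.84, SE 0.16, adjusted p 0.366). In each of the 3 genes the lower KPAW array was still above the higher wild-type array, and KPAW I was above KPAW II. Col1a2 followed with 3.67 and 2.71 against 1.83 and 1.92 (log2 0.74, SE 0.16, adjusted p 0.436), and Col4a6 with 0.393 and 0.321 against 0.191 and 0.227 (log2 0.71, SE 0.16, adjusted p 0.47).

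Not all classes stood apart to the same degree. Col2a1 read 0.107 and 0.116 in KPAW and 0.107 and 0.103 in wild type (log2 0.08, SE 0.13, adjusted p 0.889; -0.16 without scaling). Col9a1 differed by 0.14 (SE 0.15, adjusted p 0.81; -0.13 without scaling). Col4a1 and Col18a1 had overlapping groups, with differences of 0.26 and 0.24 that turned to -0.02 without scaling. The other type IV estimates were 0.48 for Col4a2, 0.42 for Col4a3, 0.18 for Col4a4 and 0.03 for Col4a5, the last pair turning to -0.04 and -0.23 without scaling. Col8a1 differed by 0.33 (SE 0.16, adjusted p 0.675). Differences between these classes were not tested.

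Col17a1 was the 1 negative estimate: 0.345 and 0.460 in KPAW against 1.00 and 0.646 in wild type (log2 -0.98, SE 0.34, adjusted p 0.675). Corneal epithelium markers had a summed signal of 7.53 and 13.4 in KPAW against 16.6 and 17.7, and none of the 4 passed. Krt12, the keratin of that epithelium, read 0.391 on KPAW I and 5.13 on KPAW II against 6.76 and 7.82. Krt5, of all stratified epithelia, read 4.43 and 4.18 against 4.61 and 4.55. The part of epithelial content in the Col17a1 estimate was not tested.

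The 2 KPAW arrays at 1 month differed in what else they held. On KPAW I, 28 of the 29 collagens lay above the wild-type mean (median 0.51), and on KPAW II 23 did (median 0.24), while the median over all probe sets was 0.00 and -0.01. Epidermal markers (7 of 7 on the array) summed to 20.2 on KPAW I and 7.92 on KPAW II, against 0.343 and 0.355 in wild type. Rod markers, at 0.445 on KPAW I, were at 20.2 on KPAW II. Corneal stroma markers summed to 5.74 and 4.22 against 3.33 and 3.57, fibroblast and tendon markers to 1.60 and 1.37 against 1.25 and 1.17, and no marker of either list was called. The part of skin, rods or stroma in the collagen differences was not tested. Without KPAW II, 7 collagens were called higher at an adjusted p of 0.0106 to 0.0471 for the 6 genes Col1a1, Col1a2, Col3a1, Col5a2, Col4a2 and Col4a6 (0.909% of all probe sets were called higher and 2.64% lower). The seventh was Col12a1, and this is a fit in which KPAW at 1 month is KPAW I alone and is assumed to vary like the other groups. Without KPAW I, none was called, 23 of 29 were positive and the median was 0.24.

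At 5 days no collagen passed the test between KPAW and wild type, and neither did any other of the 15838 probe sets (limma, 0% called); 3 members and 378 probe sets had an unadjusted p under 0.05. Here 28 of 29 estimates were negative (47.5% of all probe sets) with a median of -0.26 against 0.01 over all, whereas on the values as deposited, where the median over all probe sets moved to 0.18, 19 were negative and the collagen median was -0.08. Both KPAW arrays lay below both wild-type arrays for 21 of 29 members (16.6% of all probe sets) and above them for 1, Col2a1 (16.8%). On KPAW I 27 of the 29 lay below the wild-type mean (median -0.31) and on KPAW II 28 did (median -0.27). Xist was low on KPAW I and high on KPAW II and both wild-type arrays, and its part in these estimates was not tested.

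Col5a1 had the largest estimate at this age, with 0.575 and 0.488 in KPAW against 0.846 and 0.803 in wild type (log2 -0.62, SE 0.15, adjusted p 1.00). Col6a2 read 0.803 and 0.745 against 1.11 and 1.03 (log2 -0.46, SE 0.15, adjusted p 1.00). Col1a2 read 4.53 and 4.01 against 5.45 and 5.35 (log2 -0.34), and Col4a2 1.06 and 1.08 against 1.37 and 1.34 (log2 -0.33). All 4 of these genes had separate groups, yet none passed. Type I, III and IV estimates lay between -0.37 and -0.18, and Col3a1 turned to 0.01 without scaling. Col6a3 read 0.871 and 0.774 against 1.41 and 1.07 (log2 -0.56, SE 0.22). Estimates were -0.32 for Col8a1, -0.31 for Col18a1, -0.17 for Col9a1 and -0.01 for Col17a1. Without scaling, the last pair turned to 0.02 and 0.16. Col2a1 read 0.421 and 0.414 against 0.398 and 0.387 (log2 0.08, SE 0.13). Corneal stroma markers summed to 3.47 and 3.15 in KPAW against 4.37 and 4.12 in wild type, and their part in the collagen estimates was not tested.

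**Figure D4:**
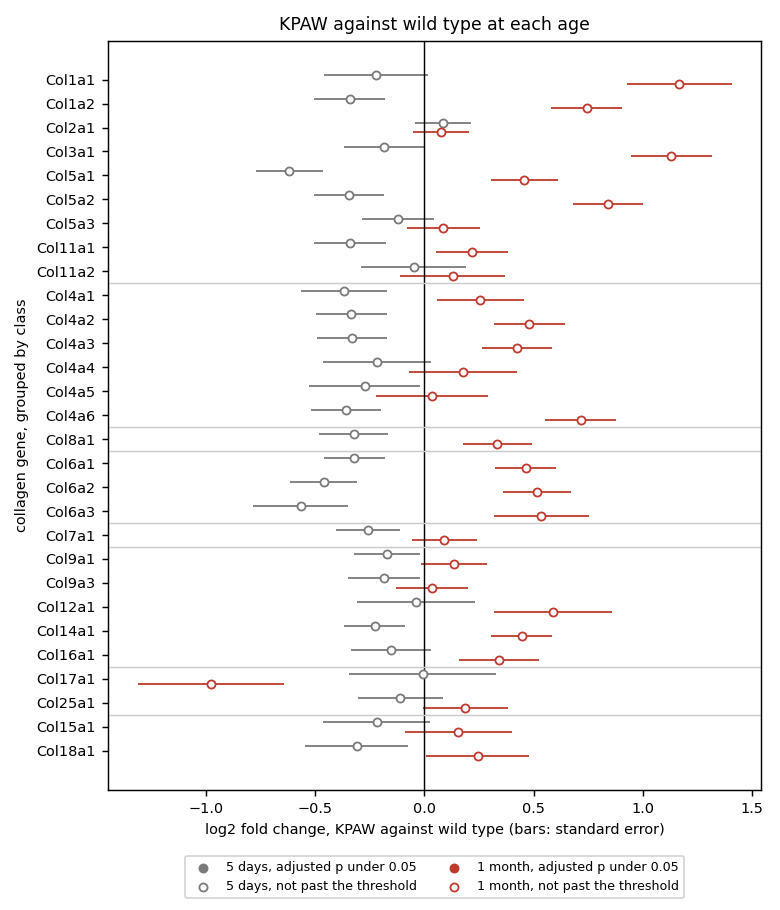
The log2 fold change of KPAW against wild type is plotted with its standard error for the 29 tested collagens at 5 days and at 1 month, and open points did not pass the test. At 5 days 28 estimates are negative and at 1 month 28 are positive; without scaling between arrays these counts were 19 and 15.

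The last comparison tests whether the KPAW difference changed between the ages, which is the same quantity as the difference between the age changes of the 2 kinds of eye. None of the 29 collagens and none of all probe sets passed (limma, 0% called); 14 of the 29 and 932 of all had an unadjusted p under 0.05. Of the 29 estimates 27 were positive (46.3% of all probe sets), with a median of 0.63 against -0.03, and 20 were positive without scaling, where the median over all probe sets was -0.45. Estimates were 1.39 (SE 0.34, adjusted p 0.809) for Col1a1, 1.31 (SE 0.26, adjusted p 0.703) for Col3a1, 1.19 (SE 0.23, adjusted p 0.65) for Col5a2 and 1.07 (SE 0.23, adjusted p 0.809) for Col4a6. Col2a1, at -0.01 (SE 0.18, adjusted p 0.993), and Col17a1, at -0.97 (SE 0.47, adjusted p 0.809), were the 2 negative ones. The estimate was negative at 5 days and positive at 1 month for 27 of the 29 (25.0% of all probe sets). For 15 of the 29 members both KPAW arrays were below wild type at 5 days and above it at 1 month (3.74% of all probe sets). Leaving out KPAW II at 1 month, 8 collagens passed (0.360% of all probe sets were called higher and 1.57% lower): Col1a1, Col1a2, Col5a1, Col5a2, Col4a2, Col4a6, Col6a2 and Col6a3, with adjusted p from 0.0138 to 0.0495.

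The genes that make and assemble collagen were read from lists of textbook members. Of 20 enzymes and chaperones that fold and modify chains, 15 were on the array and tested; 6 fell with age in wild type and none rose (9.33% of all probe sets were lower), and 2 fell in KPAW (7.51%). Serpinh1, the collagen-specific chaperone HSP47, read 1.10 and 1.14 in wild type at 5 days and 0.261 and 0.344 at 1 month (log2 -1.83, SE 0.26, adjusted p 0.00387), and in KPAW 0.957 and 1.06, then 0.627 and 0.340 (log2 -1.09, adjusted p 0.0311). Ppib, a proline isomerase of the endoplasmic reticulum, fell in both, from 2.05 and 1.85 to 0.956 and 0.967 in wild type (adjusted p 0.00414) and from 2.08 and 1.76 to 1.42 and 1.20 in KPAW (log2 -0.55, adjusted p 0.0439). P3h1 (-0.98) and Crtap (-0.89), which with Ppib form the complex that modifies prolines, passed in wild type and not in KPAW.

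Of 16 genes for cutting and cross-linking procollagen, 11 were on the array and 9 tested; in wild type 2 rose and 3 fell with age (8.73% of all probe sets higher and 9.33% lower), and in KPAW 2 rose and 1 fell (6.76% and 7.51%). Lox, the enzyme that starts cross-links, read 0.481 and 0.432, then 0.0921 and 0.106 in wild type (log2 -1.99, SE 0.18, adjusted p 0.000673), and it fell in KPAW as well (log2 -1.50, adjusted p 0.0026). Bmp1, which removes the C-terminal propeptide, fell in wild type (log2 -0.93, adjusted p 0.0171). The members that rose were Tgm2, a transglutaminase with many substrates (log2 2.77, adjusted p 0.00111 in wild type and 1.97, adjusted p 0.00475 in KPAW), and Pcolce2, an enhancer of propeptide removal (1.71, adjusted p 0.00152 and 1.65, adjusted p 0.00242). Pcolce2 read 0.0125 to 0.0153 on the 4 arrays at 5 days, under the filter level of 0.0406, and 0.0796 to 0.0986 at 1 month. It passed the filter only through the groups where it was high, so its call is no support for a change in the list. Of 11 collagen receptors 7 were on the array and 6 tested. In wild type the integrin subunit Itgb1 fell (log2 -1.14, adjusted p 0.00742) and Cd44 rose (log2 1.00, adjusted p 0.0309), each 1 of 6 beside the same shares of all probe sets, and none passed in KPAW. No gene of the 3 lists passed in the KPAW comparison at either age.

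Of the 29 tested members, 28 had all 4 group means above the filter level. The 7 members under the filter were Col10a1, Col9a2, Col19a1, Col20a1, Col22a1, Col13a1 and Col26a1. Their highest signals on any array were 0.0162 (Col9a2) to 0.0825 (Col19a1), and no test was made of them. A second probe set could be tested for 15 members, 16 probe sets in all. These had the sign of the chosen probe set in 16 of 16 cases for age in wild type, 15 of 16 for age in KPAW, 16 of 16 for KPAW at 1 month and 13 of 16 for KPAW at 5 days. The 3 that differed at 5 days were those of Col3a1 (0.04), Col9a3 (0.13) and Col18a1 (0.05). Of the chosen and second probe sets, both were called for 11 of the 16 in wild type with age and for 5 in KPAW.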

How the data were processed

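RNA of 8 mouse eye samples was measured on Affymetrix mouse arrays, 1 array per sample. The deposited values are 1 signal intensity per probe set and array, from software not given in the sources used here. Their scale was read from the values, which were never negative and had a long upper tail, so they were treated as linear. Of 22690 probe sets, 64 controls were left out. Arrays were brought to a common trimmed mean, the median of the 8 (2% off each end; the highest was 1.78 times the lowest), and log2(signal + 0.0211) was taken, the pseudocount being the 20th percentile; fold changes of low genes are thereby understated. Probe sets above the 30th percentile of mean signal (0.0406) were kept, 15838 in all. One limma model (3.58.1, R 4.3.3) with 4 group means, a variance trend and 4 residual degrees of freedom was fitted to all of them, with Benjamini-Hochberg adjustment over all for each of 5 contrasts at 0.05. It was tested on simulated data. Comparisons that share a group share its arrays, so age in wild type and KPAW at 1 month both rest on the wild-type arrays at 1 month. Depth has no meaning for arrays; their number limits the precision. Symbols came from GEO's platform annotation, and loci and sequences from RefSeq on GRCm38.p6 for the 36 and 27 members that matched. Members and lists were chosen with earlier results of these data known. Genes named with their values were the called members (up to 10 per contrast by moderated statistic), or the 3 largest statistics in each direction, with Col1a1, Col1a2, Col2a1, Col3a1, the type IV chains, Col8a1, Col9a1, Col17a1 and Col18a1 always, and members whose probe sets disagree. Some of these genes were given only as an estimate or within a range, and the change of the KPAW difference only for a part of them. Alternatives were other scalings, pseudocounts, filters and fits, the mean over a gene's probe sets, a replicate block and leaving out each array. Plots used Python 3.11.15, pandas 2.3.3 and matplotlib 3.10.9.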

Additional observations from a re-analysis of the deposited data

Results flagged for a closer look

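By the chosen probe set, both KPAW arrays of 15 collagens lay below both wild-type arrays at 5 days and above both at 1 month. The share over all probe sets was 3.74%. The change in the log2 difference was 1.39 for Col1a1, 1.08 for Col1a2, 1.31 for Col3a1, 1.08 for Col5a1, 1.19 for Col5a2 and 0.56 for Col11a1 among the fibrillar genes. It was 0.81 for Col4a2, 0.75 for Col4a3 and 1.07 for Col4a6 among the type IV chains, 0.78, 0.98 and 1.10 for Col6a1, Col6a2 and Col6a3, 0.66 for Col8a1, 0.35 for Col7a1 and 0.67 for Col14a1. The test of this change itself passed for none of them (limma interaction, adjusted p 0.65 to 0.809). The other probe sets of Col1a2, Col5a1, Col5a2 and Col6a2 had the same pattern. Those of Col1a1 and Col3a1 overlapped wild type at 5 days, and those of Col11a1, Col4a6, Col8a1 and Col14a1 overlapped it at both ages. On the values as deposited, the Col3a1 difference at 5 days turned to 0.015 and the Col7a1 change to -0.060.

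In Col4a3 and Col4a6 the age change went opposite ways in the 2 kinds of eye, with every 1-month array below every 5-day array in wild type and above in KPAW. The KPAW age change was 0.48 for Col4a3 and 0.28 for Col4a6, against -0.27 and -0.80 in wild type, and neither passed the interaction test (adjusted p 0.809 for both). Neither KPAW age change was called (limma, adjusted p 0.0837 and 0.285). In wild type Col4a3 was not called either (adjusted p 0.275), and its change turned to 0.18 on the values as deposited. The Col4a6 call in wild type (adjusted p 0.0143) was lost without some of the arrays. The share of all probe sets with this pattern was not counted. The second probe set of Col4a6 fell by 0.22 in KPAW, against the direction of the first.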

How the results depend on the processing

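The count of collagens called was 0 for KPAW at 1 month, 0 for KPAW at 5 days, 22 for age in wild type, 10 for age in KPAW and 0 for the change of the KPAW difference. Leaving out each array in turn gave 0 to 7, 0 to 0, 15 to 22, 6 to 14 and 0 to 8. On values as deposited, age in wild type gave 13 calls, and a fit of the KPAW groups alone gave 6 for age in KPAW, where only 4 arrays enter. Under the other settings the counts were within 1.5 times. Of the 22 wild-type calls 12 held in every setting run, as did 6 of the 10 in KPAW. Without scaling the median over all probe sets moved to 0.44 for age in wild type. Among the members named in each comparison only, values of opposite sign without scaling were, for KPAW at 1 month, -0.16 (Col2a1), -0.019 (Col4a1), -0.040 (Col4a4), -0.23 (Col4a5), -0.13 (Col9a1) and -0.021 (Col18a1); for KPAW at 5 days, 0.015 (Col3a1), 0.024 (Col9a1) and 0.16 (Col17a1); for age in wild type, 0.18 (Col4a3), 0.047 (Col12a1) and 0.19 (Col25a1); and for the change of the difference, -0.15 (Col4a5), -0.060 (Col7a1) and -0.16 (Col9a1). A pseudocount at the 40th percentile gave 0.0054 for Col17a1 at 5 days. Median scaling gave -0.0022 for Col7a1 with age in wild type and 0.067 for the change in Col2a1, for which quantile normalization gave 0.021. The cause of these reversals was not tested. Over all 29 members, 15 estimates were positive at 1 month and 19 negative at 5 days without scaling; leaving out 1 array, 23 to 28 were positive at 1 month and 25 to 28 negative at 5 days. Among the same named members, leaving out 1 array turned the sign of KPAW at 1 month in Col4a4 (-0.088 to 0.44), Col4a5 (-0.24 to 0.31) and Col18a1 (-0.11 to 0.60), of KPAW at 5 days in Col17a1 (-0.51 to 0.49), of age in wild type in Col4a4 (-0.036 to 0.50) and Col25a1 (-0.46 to 0.020), of age in KPAW in Col4a1 (-0.49 to 0.0097) and Col12a1 (-0.20 to 0.64), and of the change in Col2a1 (-0.058 to 0.043). With the numerals I and II as a replicate block, the counts were 0, 0, 22, 11 and 0, the added call being Col17a1, higher in KPAW with age (adjusted p 0.0497). The numerals share only a number: the I minus II differences of the groups correlated at -0.02 to 0.31.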
